A study of Oryctolagus cuniculus with 57 samples.

Results

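Genes that copy DNA and drive cells through mitosis were followed in the ileum of young rabbits around and after weaning. The members were 50 genes listed by symbol, listed for their roles in S phase or in mitosis. A probe of the array was named for 37 of them, and 36 stood above background and were measured, 17 S phase genes and 19 mitosis genes, of 8026 genes tested in all. No probe was named for MCM2, CDT1, CDC45, GINS1, GINS2, PRIM1, RFC2, CCNA2, ESPL1, BIRC5, PRC1, CENPF or TOP2A, which were not analysed here, and the single probe of CENPE was too dim. RNA of whole ileum had been hybridised with 1 dye to 57 Agilent arrays, 1 per rabbit, and 56 were used, since the study set 1 aside, which the sample titles on its clustering and ordination plots give as NF rabbit 78 of day 35. The rabbits were commercial hybrids of PS Hyplus lines, and feces were given or withheld by nest. NF rabbits had no access to feces in the nest, FF rabbits were given feces of unrelated does, and FFab rabbits feces of unrelated does treated with the antibiotics tetracycline and tiamulin. At day 35, the day of weaning, there were 10 FF, 9 NF and 10 FFab rabbits, and at day 49 there were 9 of each. Sex and litter are not in the labels, so rabbits were treated as independent. Levels are normalised log2 signals, on which a difference of 1 is a doubling. Levels of different genes come from different probes and were not compared.

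In the intestine, cells divide in the crypts, pits between the villi, where stem cells and their transit-amplifying daughters supply the lining, and they stop dividing as they move up onto the villi as enterocytes. Before S phase, loading factors place the ring-shaped MCM helicase on DNA. In S phase the helicase opens the double strand, and the clamp PCNA, placed by the RFC clamp loader, holds the polymerases on their template. Mitosis is started by CDK1 with its B cyclins, and the spindle checkpoint holds back the separation of chromosomes until each is attached. The ileum also holds lymphoid follicles, Peyer's patches, in whose germinal centres B cells divide. In whole tissue, fewer dividing cells and less RNA per cell cannot be told apart.

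The probes below read the genes on which most of the description rests. Each is a designed probe of 60 bases as given in the files, and positions are on the rabbit build oryCun2. For MKI67, which codes for the proliferation antigen Ki-67, the probe lies at chr4:28803243-28803302, plus strand. For PCNA it lies at chr4:11722188-11722247 and for CDK1 at chr18:25387782-25387841, both on the minus strand. The AURKB probe spans chr19:11056732-11056920 on the plus strand, a span longer than the probe itself. The files do not state the exon or UTR of a probe, and no annotation of this build was used.
MKI67: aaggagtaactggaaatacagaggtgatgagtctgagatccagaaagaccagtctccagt
PCNA: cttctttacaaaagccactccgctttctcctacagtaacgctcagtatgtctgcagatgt
CDK1: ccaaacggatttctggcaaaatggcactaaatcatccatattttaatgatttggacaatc
AURKB: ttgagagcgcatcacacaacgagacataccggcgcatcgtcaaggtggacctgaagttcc

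FF rabbit 87 and NF rabbit 79, both of day 35, and NF rabbit 170 of day 49 stood apart, with almost all members above the mean of their group. They were found by their level in the members, and the counts and medians that move without them are given beside the main values. Between 68.2% and 85.7% of the probes of an array were above background. No spot of the probe used for a member was saturated, and the other probes of the members were not checked for this.

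The first comparison set day 49 against day 35 over the 3 treatments. Of the 36 members, 33 had a lower mean at day 49, with a median log2 difference of -0.16. Among all genes the median was -0.01 and 53% had an estimate under 0. The members varied together across rabbits, as described below, so counts of members in 1 direction are not counts of independent genes. No member passed the threshold, a Benjamini-Hochberg adjusted p under 0.05 in limma with a log2 difference beyond 0.5, which is 1.41-fold. Of all genes, 278 passed (3.46%), among which may be genes named only from the study's lists of differentially expressed genes. Without the 3 rabbits that stood apart, 32 members were lower and the median was -0.12. At an unadjusted p under 0.05 there were 7 members (19.4%), all lower at day 49, where 25.9% of all genes reached that p and 14.2% did so with lower values. The members at that p were RFC3, MCM6, RFC4, RFC5, FEN1, MCM7 and CDC20. RFC3 and MCM6 had an adjusted p under 0.05 but stayed within the fold minimum, a combination of p without fold that 13.6% of all genes met.

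MKI67, the usual marker of cycling cells, ranged at day 35 from 11.65 to 13.69 in FF rabbits (median 12.23), from 12.12 to 13.62 in NF rabbits (median 12.58) and from 11.90 to 13.09 in FFab rabbits (median 12.47). At day 49 it ranged from 11.93 to 12.72 (median 12.36), from 11.77 to 12.88 (median 12.24) and from 11.87 to 12.86 (median 12.36). The 6 groups overlapped, and the highest values at day 35 lay above every value of day 49. The mean difference over the 3 treatments was -0.23 ± 0.12 (SE; limma, adjusted p = 0.206). PCNA had medians of 13.77, 13.90 and 13.90 in FF, NF and FFab rabbits of day 35 and of 13.87, 13.76 and 13.72 at day 49. It lay between 13.32 and 15.20 over all rabbits and differed by -0.13 ± 0.08 (limma, adjusted p = 0.338). The medians of CDK1 were 11.50, 11.82 and 11.85 at day 35 and 11.82, 11.58 and 11.55 at day 49, so that the FF median was the higher one at day 49 and the other two the lower. It lay between 11.20 and 12.71 and differed by -0.17 ± 0.10 (limma, adjusted p = 0.279). None of these 3 usual markers passed the test between days.

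**Figure D1:**
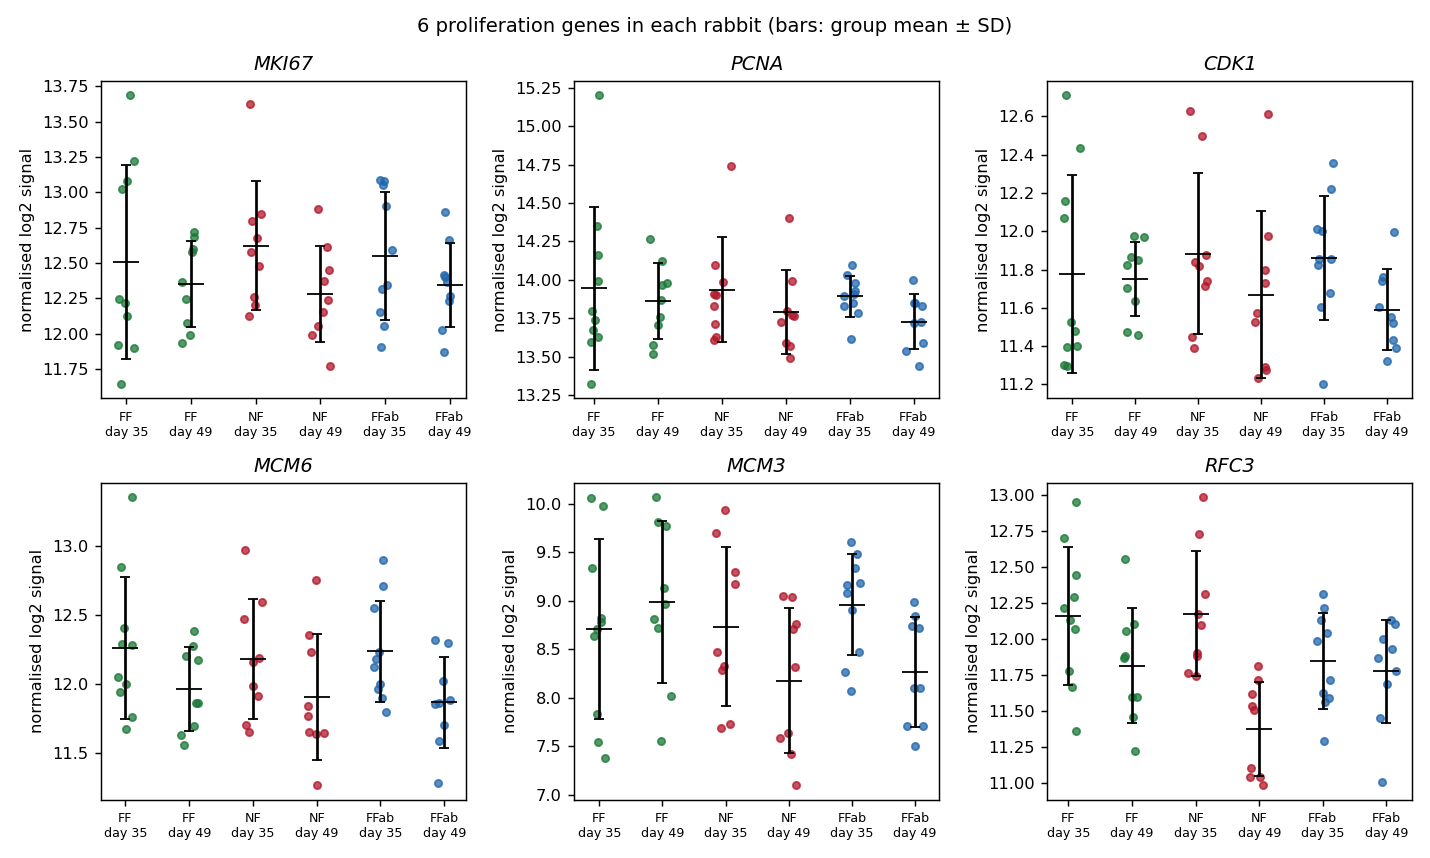
Normalised log2 signal (vertical axis, scaled per gene) of MKI67, PCNA, CDK1, MCM6, MCM3 and RFC3 in each of 56 rabbits (points), by treatment and day (horizontal axis), with the group mean and SD as bars. The groups overlap for each of the 6 genes, and for RFC3 the NF rabbits of day 49 all lie at or below 11.82, where the NF rabbits of day 35 start at 11.74.

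Among the S phase genes, the MCM helicase subunits were the class with the lowest median (5 of 5 lower, median -0.22). MCM6 had medians of 12.17, 12.16 and 12.15 in FF, NF and FFab rabbits of day 35 and of 11.87, 11.77 and 11.87 at day 49. Its medians thus lay lower at day 49 in each treatment, although the ranges overlapped in all. Its mean difference was -0.31 ± 0.11 (limma, adjusted p = 0.0420), below the fold minimum. MCM7 differed by -0.21 ± 0.09 (limma, adjusted p = 0.125). All 6 measured genes of the class of polymerase, clamp, clamp loader and flap nuclease had lower means at day 49 (median -0.17). RFC4 and RFC5, subunits of the clamp loader like RFC3, differed by -0.20 ± 0.07 and -0.15 ± 0.06. FEN1, which trims the flaps of Okazaki fragments, differed by -0.19 ± 0.08.

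In the class of deoxynucleotide supply all 3 genes had lower means at day 49. RRM1, the large subunit of ribonucleotide reductase, differed by -0.14 ± 0.08 (limma, adjusted p = 0.257). RRM2, its small subunit, differed by -0.24 ± 0.14 (limma, adjusted p = 0.270), and the median of these genes with TYMS, the thymidylate synthase, was -0.14. CDC6, which loads the helicase, had no mean difference between days (0.00 ± 0.13; 1 array without a usable spot was left out of its fit). CCNE2, a cyclin E that carries cells from G1 into S phase, differed by -0.12 ± 0.16 and was dim, well above background on 7 to 9 arrays of each group.

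The mitosis genes had a median of -0.17, with 17 of 19 lower at day 49. CDC20, the activator of the anaphase-promoting complex, had the largest difference of them (-0.27 ± 0.13; limma, adjusted p = 0.162). CCNB2, a B cyclin, differed by -0.24 ± 0.12 (adjusted p = 0.195 in limma), and CDK1, CCNB1 and CCNB2 were all lower. AURKB, the kinase of the chromosomal passenger complex, differed by -0.19 ± 0.11, and TPX2, which activates AURKA on the spindle, by -0.18 ± 0.11. All 6 genes of the spindle checkpoint and anaphase class had lower means (median -0.17). The exceptions among the mitosis genes were AURKA (0.03 ± 0.08) and NUSAP1, a microtubule bundling protein (0.24 ± 0.20), named here after their values were seen. Within slides, each of which held all 6 groups before the 1 array was left out, the mean of the mitosis genes was lower at day 49 on 8 of 9 slides and that of the S phase genes on 6 of 9.

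Each treatment was then taken on its own, as the study asked whether access to feces in the nest changes the maturation of the ileum. In FF rabbits the median difference of the members was -0.08, with 27 of 36 lower. In NF rabbits it was -0.22, with 35 of 36 lower, and in FFab rabbits -0.16, with 33 of 36 lower. Of all genes, 53.6%, 51.7% and 52% had an estimate under 0 in FF, NF and FFab rabbits. No member passed the threshold in any treatment, where 346 genes (4.31%) passed in FF, 3 (0.0374%) in NF and 6 (0.0748%) in FFab rabbits. At an unadjusted p under 0.05 there were 0 members in FF (21.2% of all genes), 2 in NF (RFC3 and RFC5; 6.14%) and 1 in FFab rabbits (MCM3; 8.34%). Without FF rabbit 87 of day 35, 2 members reached that p in FF rabbits, where 20.8% of all genes did.

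The direction in FF rabbits rested on 1 rabbit. FF rabbit 87 of day 35 had the highest members of all 56 rabbits, on average 1.11 above its group mean, with 35 of 36 genes above it. Without that rabbit, 12 of 36 members were lower at day 49 in FF rabbits and the median was 0.06. NF rabbit 79 of day 35 (0.71 above its group mean, 36 of 36 genes) and NF rabbit 170 of day 49 (0.75 above, 35 of 36 genes) also stood high. Without rabbit 79 the NF median was -0.14, and without rabbit 170 it was -0.33. Without rabbit 170, 15 members reached an unadjusted p under 0.05 in NF rabbits, where 6.35% of all genes did, and 15 over the 3 treatments, where 26.5% of all genes did. RFC3 in NF rabbits was the 1 member past the threshold there. Without all 3 rabbits, 6 members reached that p in NF rabbits (5.98% of all genes) and 9 over the 3 treatments (25.9%). The 3 rabbits were picked by their level in the members. Leaving them out thus narrows the spread of the members and moves their group means by construction. The shares of all genes were not selected in this way, so such counts are a description and not a test.

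**Figure D2:**
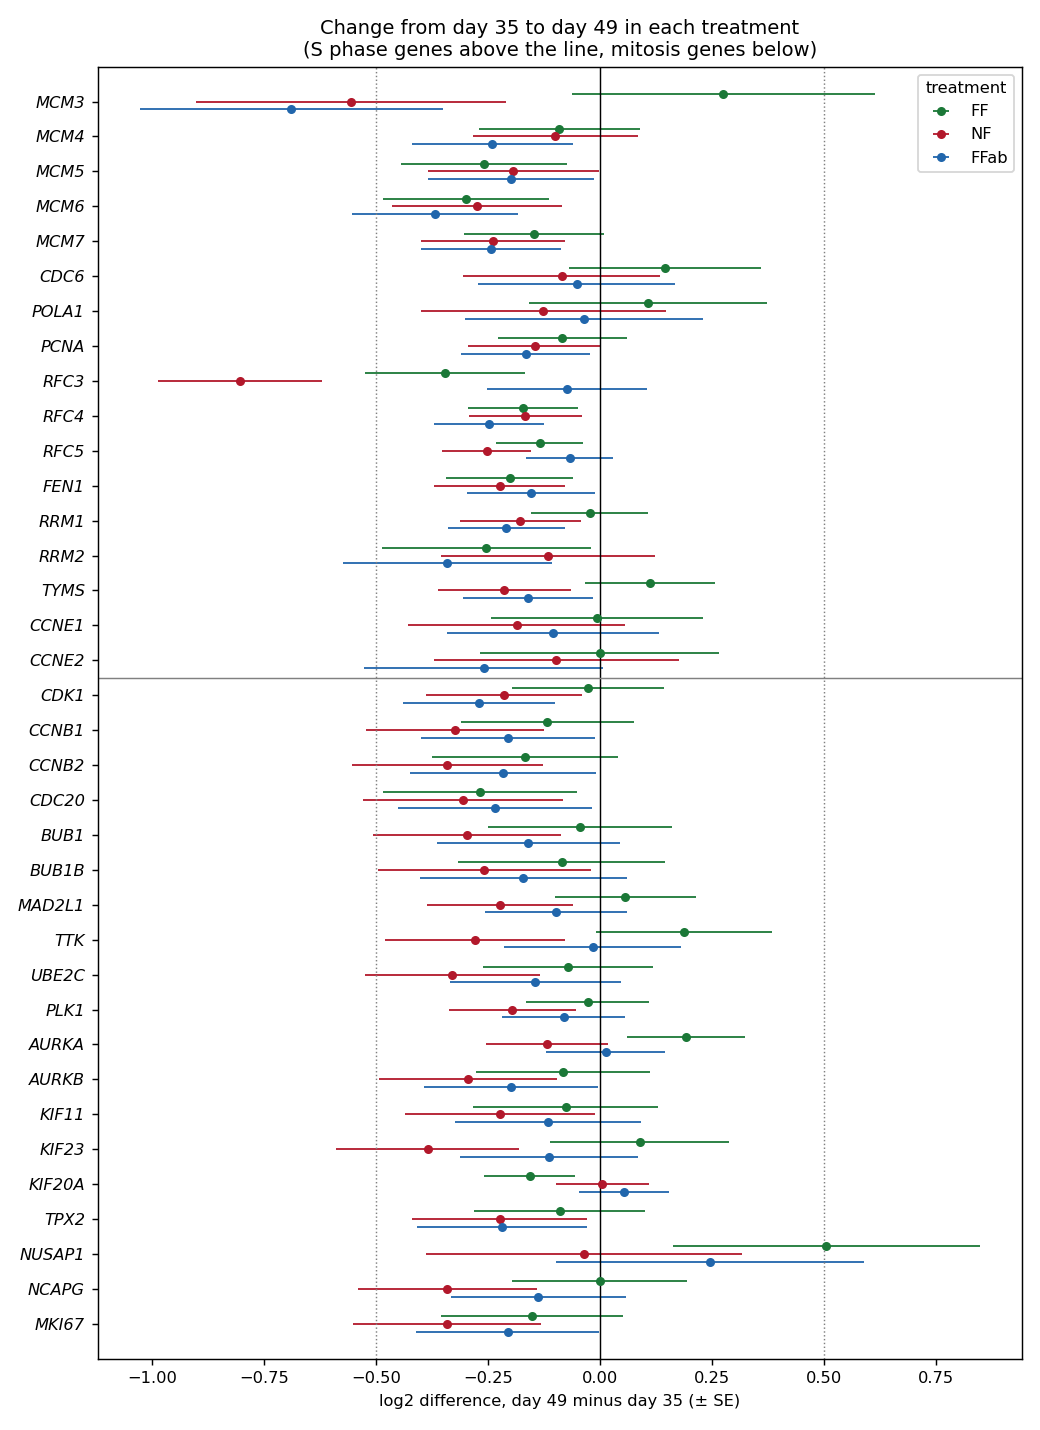
Log2 difference, day 49 minus day 35 (horizontal axis), of the 36 measured members (rows) in FF, NF and FFab rabbits (colours), with the SE as bars and dotted lines at the fold minimum of 0.5. Most points lie left of 0, FF is the least negative of the treatments for 27 members, and RFC3 in NF rabbits lies farthest to the left, at -0.80.

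The difference between treatments was tested itself, and no member passed in any of these comparisons. The change with age was higher in FF than in NF rabbits for 31 of 36 members and lower for 5 (median difference 0.18; lower in 52.3% of all genes), where 0 of 8026 genes passed (0%), 367 reached an unadjusted p under 0.05 (4.57%) and 0 of these were members. Without FF rabbit 87 it was higher for 34 members (median 0.32), 7 of them reached that p, where 5.18% of all genes did, and none passed the threshold. Without NF rabbit 79 it was higher for only 26 members (median 0.09), and 0 reached that p, where 5.05% of all genes did. In the same comparison, 6 of 6 smooth muscle markers (median 0.50), 8 of 11 enterocyte markers (0.19) and 6 of 8 T cell markers (0.15) were also higher. So were 2 of 2 plasma cell markers (0.23) and 6 of 10 crypt base stem cell markers (0.02). Other lists had medians under 0. Higher there were 2 of 6 B cell markers (-0.05), 2 of 6 germinal centre markers (-0.07) and 2 of 4 enteroendocrine markers (-0.08). The same held for 0 of 3 goblet cell markers (-0.30) and 1 of 4 red blood cell markers (-0.34). In each list 0 passed the threshold, and their part in the result was not tested. The change with age was higher in FF than in FFab rabbits for 30 members and lower for 6 (median 0.10). Of all genes, 51.9% were lower and 0 passed (0%). Of the members, 1, MCM3, was among the 2.89% of genes at an unadjusted p under 0.05. Between NF and FFab rabbits the median was -0.08 (0 genes passed, 0%), and RFC3 alone was among the 0.922% of genes at that p. Without NF rabbit 79 this median was 0.0015, with 18 members higher and 18 lower, and without NF rabbit 170 it was -0.19. Both of the first comparisons use the same FF rabbits, rabbit 87 among them, and without that rabbit the second was higher for 33 members (median 0.24), with 2 at that p (3.23% of all genes). Treatments compared at 1 age gave medians of -0.07 (FF minus NF), -0.03 (FF minus FFab) and 0.04 (NF minus FFab) at day 35, and of 0.09, 0.08 and -0.03 at day 49. No member passed there either, and of all genes 1 passed, in FF against FFab at day 35 (0.0125%). At day 35, 0 members reached an unadjusted p under 0.05 in limma, where of all genes 7.68% did between FF and NF rabbits, 6.13% between FF and FFab and 2.02% between NF and FFab. Without FF rabbit 87, 5 members reached that p between FF and NF rabbits of day 35, where 8.24% of all genes did, with 35 of 36 lower in FF (median -0.20), and 1 did between FF and FFab rabbits (5.77%). Without NF rabbit 79 the sign of the FF minus NF median turned (0.01), with 16 of 36 lower in FF. Then 0 members reached that p, where 8.98% of all genes did. Without all 3 rabbits, 1 member reached it between FF and NF rabbits (8.6%) and 2 between FF and FFab rabbits (6.13%). The median of NF minus FFab at day 35 was 0.04 and turned to -0.04 without the 3 rabbits. At day 49 the FF minus NF median was 0.20 without NF rabbit 170, and the NF minus FFab median -0.13. KIF23, a motor of the midzone, had the smallest p of the members in FF minus NF at day 35 (-0.32 ± 0.20), and RFC3 in the other two comparisons of that day. At day 49 the members at that p were MCM3 and RFC3 in FF against NF, MCM3 in FF against FFab and RFC3 in NF against FFab, where 1.27%, 2.44% and 1.92% of all genes reached it.

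RFC3, a subunit of the clamp loader, had the largest change of the members by the probe used. In NF rabbits it ranged from 11.74 to 12.99 at day 35 (median 12.10) and from 10.98 to 11.82 at day 49 (median 11.51). The 2 ranges shared only the stretch from 11.74 to 11.82. In FF rabbits it ranged from 11.36 to 12.95 (median 12.17) and from 11.22 to 12.55 (median 11.87), and in FFab rabbits from 11.29 to 12.31 (median 11.85) and from 11.01 to 12.13 (median 11.87). The difference in NF rabbits was -0.80 ± 0.18, a 1.74-fold lower signal, with an adjusted p of 0.0553 in limma that just missed the threshold, and it passed in 4 of 12 alternative settings. In FF rabbits the difference was -0.35 ± 0.18 and in FFab rabbits -0.07 ± 0.18. The differences between these changes did not pass, NF minus FFab being -0.73 ± 0.26 (limma, adjusted p = 0.9995; unadjusted p = 0.00615). Over the 3 treatments it was -0.41 ± 0.10 (limma, adjusted p = 0.00494), within the fold minimum, and it was lower at day 49 on 9 of 9 slides.

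RFC3 is read by 4 probes, none placed on the build by the files. The value above comes from a custom probe named only from the tables of the study. Those tables list genes that the study called differentially expressed in these same data, so the use of this probe is not independent of its change. In a fit over all 31722 probes, the custom probe gave -0.80 ± 0.18 in NF rabbits and the 3 Agilent probes -0.51 ± 0.15, -0.56 ± 0.15 and -0.61 ± 0.14, 0 of 4 past the threshold. The probes correlated with each other across rabbits with r from 0.76 to 0.98. All 4 were lowest in NF and highest in FFab rabbits in their change with age, and the custom probe spread the treatments farthest. One of the Agilent probes is shown with the last 30 bases of the custom probe, where capitals mark AATAAA, the letters of the usual polyadenylation signal, searched on the strand as printed. These letters are in 5% of all 42089 probes, in 8.56% of the custom probes and in 3.16% of the Agilent probes, so the match only describes the probe.
RFC3, Agilent probe: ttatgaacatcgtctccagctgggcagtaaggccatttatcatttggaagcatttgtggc
RFC3, custom probe: gatagccccaggtaaAATAAAataacttta

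**Figure D3:**
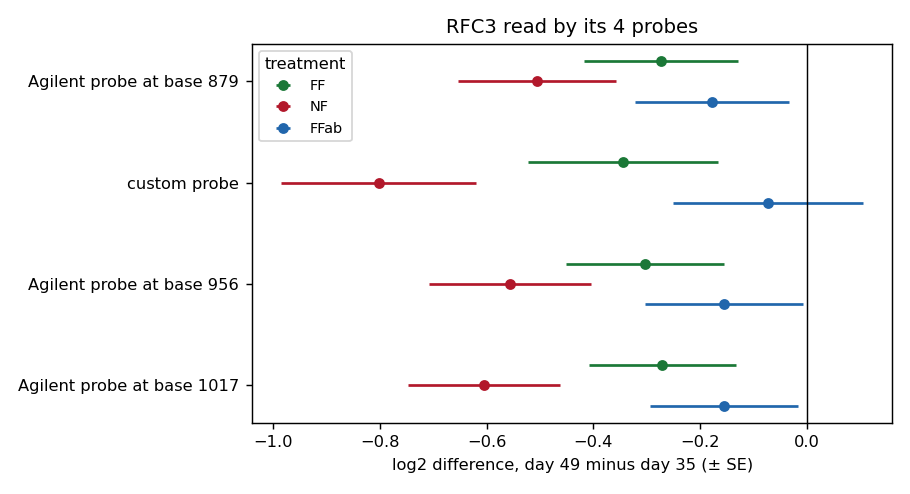
Log2 difference of RFC3, day 49 minus day 35 (horizontal axis), by each of its 4 probes (rows, ordered by level) in FF, NF and FFab rabbits (colours), with the SE as bars. NF is farthest from 0 with each probe, from -0.51 to -0.80.

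MCM3, a subunit of the helicase ring, was the member with the smallest unadjusted p in FFab rabbits. It ranged there from 8.07 to 9.61 at day 35 (median 9.12) and from 7.50 to 8.99 at day 49 (median 8.10), and in NF rabbits from 7.69 to 9.93 (median 8.47) and from 7.10 to 9.05 (median 8.32). In FF rabbits it ranged from 7.38 to 10.06 (median 8.75) and from 7.56 to 10.07 (median 8.97). The rabbits of each group were thus spread over most of the range of the gene. The differences were -0.69 ± 0.34 in FFab (limma, adjusted p = 0.583), -0.56 ± 0.35 in NF and 0.28 ± 0.34 in FF rabbits. Its spread between rabbits of a group (SD 0.72) was above the median of the members (0.40) and of all genes (0.31). The 5 probes of MCM3 agreed (r 0.94 to 0.99), but they lie 1 base apart at chr12:41764486-41764549, minus strand, and so read the same stretch. The first and the last are shown, with the 56 bases that all 5 share in capitals.
MCM3, first probe: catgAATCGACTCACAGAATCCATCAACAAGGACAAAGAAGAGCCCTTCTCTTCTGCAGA
MCM3, last probe: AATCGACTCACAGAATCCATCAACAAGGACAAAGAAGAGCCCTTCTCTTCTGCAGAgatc

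The members varied together from rabbit to rabbit. After each group's mean was taken off, the 630 pairs of members had a median Pearson r of 0.65 over 56 rabbits, where pairs among the 7857 genes with a value on every array had a median of 0.01. Pairs of mitosis genes had a median r of 0.83, pairs of S phase genes of 0.59 and mixed pairs of 0.61. The closest pair was BUB1, a spindle checkpoint kinase, with CCNB2 (r = 0.97). With the mean of the other members, 22 of 36 genes had an r over 0.8, led by AURKB (0.96), BUB1, CCNB2, CDK1 and KIF11, and MKI67 had 0.81 and PCNA 0.87. Over the 53 rabbits without the 3 that stood apart, the median r was 0.50 over all pairs, 0.75 for mitosis genes, 0.43 for S phase genes and 0.43 for mixed pairs, and 14 genes had an r over 0.8, with MKI67 at 0.73 and PCNA at 0.74. All points of such a correlation share the array and its normalization. The mean of the members had an r of 0.17 with the signal level of the arrays and of -0.03 with the share of probes above background.

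FEN1 (r = 0.40), NUSAP1 (0.30) and KIF20A (-0.11), singled out by their values, did not share this pattern. KIF20A, a motor of the midzone, is read by 1 probe at chr3:20485538-20485597, plus strand, whose signal lay between 15.13 and 16.19 in all rabbits with an SD of 0.21. Whether this probe reads only KIF20A, or responds less at so high a signal, was not tested. Both probes of NUSAP1 varied together (r = 0.92), and the one not used had an r of 0.54 with the members. The 2 probes of POLA1, a subunit of the priming polymerase, did not vary together (r = -0.04), so its level here depends on the probe, and its r with the members, 0.56, was 0.29 without the 3 rabbits. MCM3 (0.51) and RFC3 (0.52) had 0.39 and 0.35 without them. Genes of further lists were set beside the mean of the members in the same way. Of 37 measured genes of a second list of G2 and mitosis genes, 37 had an r over 0 with the mean of the members, led by MELK (0.94), KIF15 (0.91) and NCAPD2 (0.91). Of 28 further replication genes it was 26, led by LIG1, which joins Okazaki fragments (0.89), with a median gene r of 0.61 against 0.78 in the mitosis list. Of the 7990 other genes tested, 45.6% had an r over 0, and their median r was -0.03. The lists of cell cycle exit and G1 entry had weaker relations, with r over 0 for 9 of 15 and 4 of 5 genes and list means at r = 0.24 and 0.31.

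**Figure D4:**
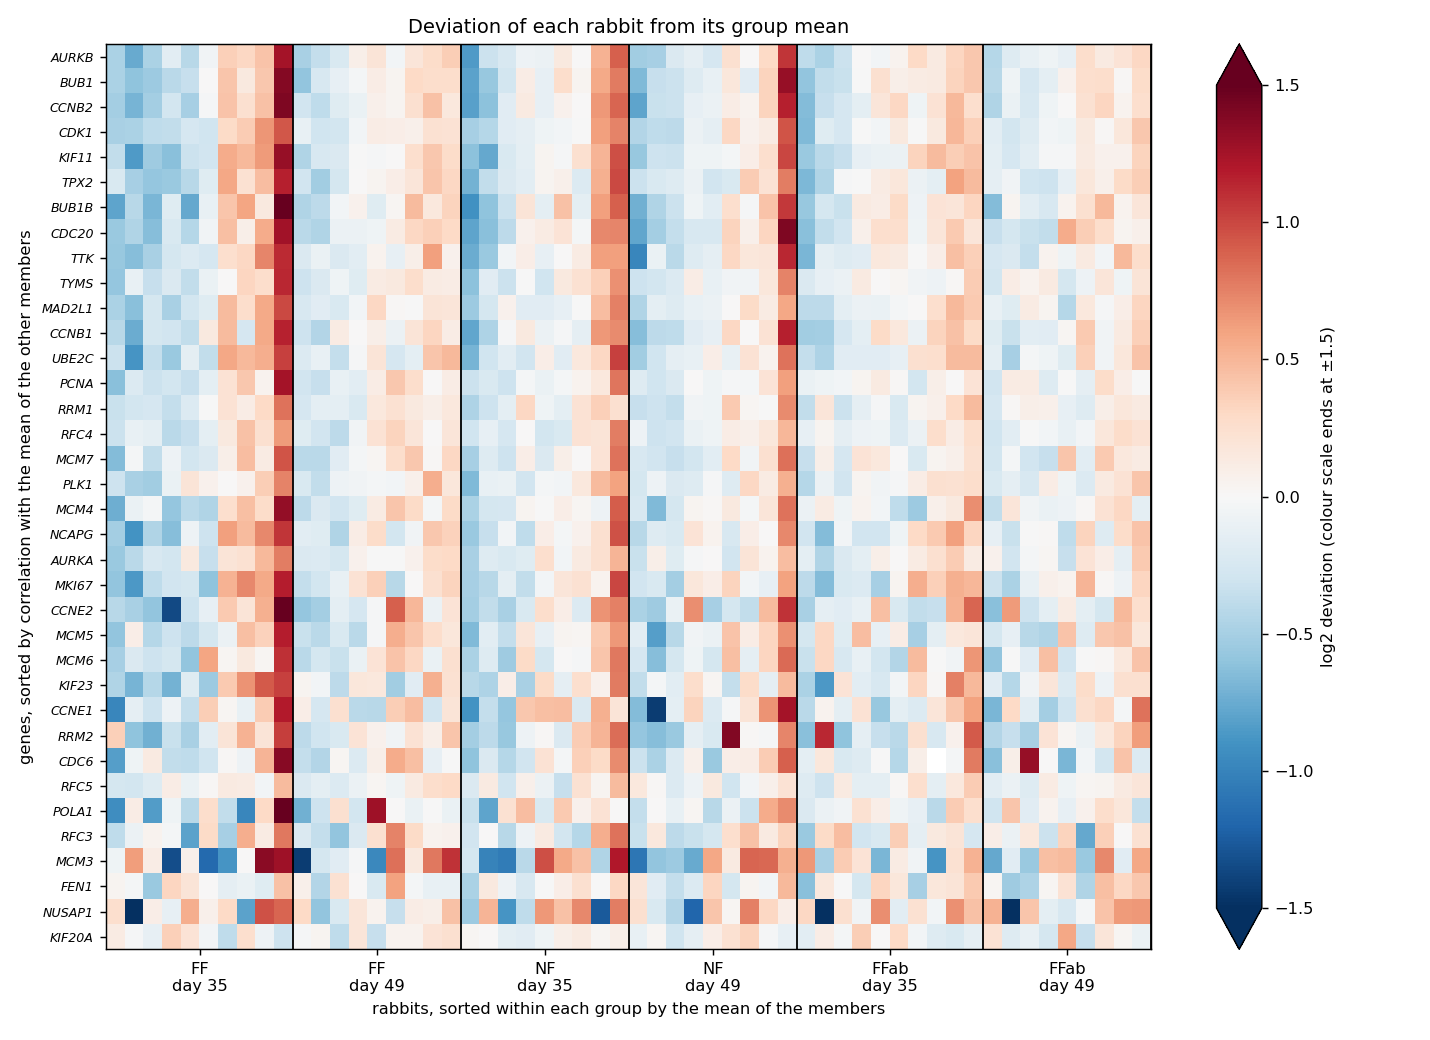
Log2 deviation of each rabbit (columns, sorted within each group) from its group mean for the 36 members (rows, sorted by r with the mean of the other members), with the white cell of CDC6 in FFab rabbits of day 35 standing for an array without a usable spot. Whole columns are red or blue together, most of all FF rabbit 87, NF rabbit 79 and NF rabbit 170, and the bottom rows, FEN1, NUSAP1 and KIF20A, break the pattern.

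The level of the members across rabbits was set beside markers of the cells that whole ileum holds. Markers of absorptive enterocytes were lower where the members were higher, for 11 of 11 measured genes (list mean r = -0.68, Spearman's rho = -0.66, and r = -0.63 without the 2 rabbits farthest from the median). Markers of germinal centre B cells were higher with the members for 5 of 6 genes (r = 0.67, rho = 0.56, and r = 0.58 without those rabbits), and B cell markers had r = 0.47 and T cell markers 0.50. Both relations held within each age, with r = -0.71 and -0.60 for enterocytes and 0.72 and 0.57 for germinal centres at day 35 and day 49. Markers of crypt base stem cells showed no such relation (10 genes, r = 0.08, rho = 0.00). Enterocyte markers were high in every rabbit, the mean of the list lying between 13.29 and 15.20, which goes with the labelled tissue. Over the 53 rabbits without the 3 that stood apart, r was -0.58 for enterocytes, 0.48 for germinal centres, 0.30 for B cells, 0.48 for T cells and -0.06 for stem cells. Plasma cell markers (2 genes, r = 0.50), goblet cell markers (3 genes, 0.37) and enteroendocrine markers (4 genes, -0.38) also varied with the members. Over the 53 rabbits their r was 0.21, 0.24 and -0.46. Smooth muscle markers had r = -0.10 over both ages (0.06 at day 35 and -0.39 at day 49), and red blood cell markers 0.18 (0.31 and -0.18). The 4 genes of the red blood cell list did not go together, with r of 0.39 for CA1, 0.13 for EPB42, -0.21 for ALAS2 and -0.24 for SLC4A1.

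FF rabbit 87 had the highest level of its group in the B cell markers (10.69, group median 8.04) and in the germinal centre markers (8.23, median 5.72), and the lowest in the enterocyte markers (13.29, median 14.17). NF rabbit 79 stood in the same places in its group, with 10.50 (median 7.75), 8.10 (median 5.91) and 13.39 (median 13.92). Both rabbits were also the highest of their groups in the crypt base stem cell markers (7.55 and 7.49, medians 7.43 and 7.36), the goblet cell markers (13.65 and 13.50, medians 13.13 and 12.72) and the red blood cell markers (7.91 and 7.87, medians 7.28 and 6.26), rabbit 87 in the plasma cell markers and rabbit 79 in the T cell markers. NF rabbit 170 was highest in the germinal centre markers (6.84, median 5.98) and the plasma cell markers (8.18, median 7.24), and next to lowest in the enterocyte markers (13.67, median 14.54). Over all groups the germinal centre list ranged from 5.07 to 8.23 and the B cell list from 5.18 to 10.69. The part of these cells in the level of the members was not tested.

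**Figure D5:**
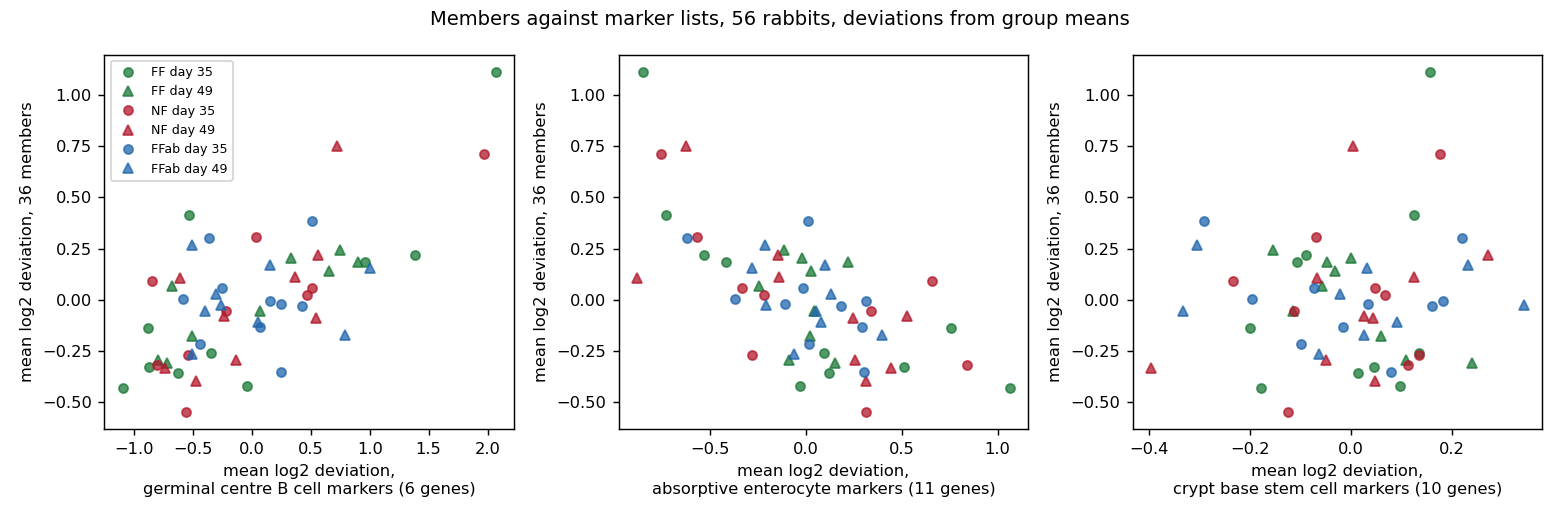
Mean log2 deviation of the 36 members from the group mean (vertical axis) against the mean deviation of markers of germinal centre B cells, absorptive enterocytes and crypt base stem cells (horizontal axes), with 1 point per rabbit, coloured by treatment. The points rise with the germinal centre markers (r = 0.67), fall with the enterocyte markers (r = -0.68) and show no slope with the stem cell markers (r = 0.08).

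MKI67 alone was tested against 40 single marker genes by permuting rabbits within groups (100000 two-sided permutations, adjusted over the 40). ALPI, the intestinal alkaline phosphatase of the enterocyte brush border, was lower where MKI67 was higher (r = -0.62, permutation p = 4e-05, adjusted 0.0016; rho = -0.59, permutation p = 7e-05, adjusted 0.0028). Without the 2 rabbits farthest in MKI67 r was -0.56, within slides it was -0.64, and at day 35 and day 49 it was -0.75 and -0.23. CD28 and CD2 of T cells (r = 0.44 and 0.41) and MYBL1 of germinal centre B cells (r = 0.50) passed by Pearson's r, with adjusted permutation p of 0.014, 0.032 and 0.023, and none of these 3 passed by Spearman's rho (adjusted permutation p of 0.067, 0.11 and 0.11). Without the 2 rabbits farthest in MKI67 the r of these 3 genes was 0.41, 0.30 and 0.31, and at day 49 it was 0.33, 0.15 and 0.02. LGR5, the receptor that marks crypt base stem cells, had an r of -0.21 (permutation p = 0.072, adjusted 0.15).

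Other lists of the cell cycle and of cell types were read from the same fit. Over the 3 treatments, 0 of 28 further replication genes passed the threshold (20 lower, median -0.08) and 0 of 37 further mitosis genes (34 lower, median -0.13). Of the replication genes, WDHD1 and NASP were lower at day 49 (-0.21 ± 0.07 and -0.17 ± 0.06). ORC1, the largest subunit of the origin recognition complex, was higher at day 49 (0.44 ± 0.11; limma, adjusted p = 0.00528), and NCAPH, a condensin subunit, lower (-0.37 ± 0.07; limma, adjusted p = 0.00023), both within the fold minimum. In FF rabbits NCAPH fell (-0.56 ± 0.12; limma, adjusted p = 0.00184), the 1 called gene of these 2 lists in any comparison of days. Of 5 measured genes of G1 entry, MYC, a growth-promoting transcription factor, fell over the 3 treatments (-0.50 ± 0.09; limma, adjusted p = 7.27e-05) and in FF rabbits (-0.52 ± 0.15; limma, adjusted p = 0.0243). CDK4, the kinase of cyclin D, differed by -0.25 ± 0.06 (adjusted p = 0.00369 in limma), within the fold minimum. Of 15 genes of cell cycle exit and CDK inhibitors 0 passed (median -0.02), with CDKN2B, an inhibitor of CDK4, at 0.44 ± 0.14.

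Among the cell markers, enterocyte genes were mostly higher at day 49, 9 of 11 over the 3 treatments with a median of 0.35. ALPI passed over the 3 treatments (0.74 ± 0.17) and in FF rabbits (1.13 ± 0.28), and SLC5A1, the sodium-glucose cotransporter, passed in FF rabbits (0.80 ± 0.19). Crypt base stem cell markers had a median of -0.04 and 0 of 10 passed, with LGR5 at -0.18 ± 0.11. Germinal centre markers had a median of -0.05 and 0 of 6 passed, and B cell markers 0.04 with 0 of 6. T cell markers were higher for 7 of 8 genes (median 0.17) and smooth muscle markers for 5 of 6 (median 0.15), with 0 past the threshold. TNFRSF17, a receptor of plasma cells, rose over the 3 treatments (0.67 ± 0.16). Of 4 measured genes of the red blood cell list, CA1 and ALAS2 fell (-1.61 ± 0.39 and -0.62 ± 0.17) and 2 did not pass. Which cells the transcripts came from was not tested.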

How the data were processed

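The authors scanned 57 one-colour arrays with Agilent Feature Extraction (version 10.10.1.1 per the file headers, 10.7.3.1 per the labels) and deposited background-subtracted spot intensity files, with a quantile-normalized log2 table of 33284 probes deposited beside them (median r 0.99 with the values used here). The processed intensity of each probe was averaged over its unflagged spots, set to log2 and quantile normalized. A probe entered the analysis (31722 of 42089 did) if in 1 or more groups 75% of arrays had 50% or more of its spots called well above background. Genes were named through accessions, gene identifiers, file names of genes and, for 137 probes, the tables of the study. These tables list genes called differentially expressed in these same data. Shares of all genes past the threshold may thus include genes that entered because they were called. Where a gene had several probes, that of median level was used. limma 3.58.1 in R 4.3.3 fitted 6 group means, and 13 contrasts were adjusted over 8026 genes. The steps were tested on simulated data. The number of arrays limits the precision, and p-values rest on rabbits taken as independent.

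Members and lists were chosen with earlier results of these data known. By rule, the genes named are MKI67, PCNA, CDK1 and RFC3, which is in the tables of the study (MCM2 and TOP2A had no named probe). The smallest p of each of 10 role classes and of each contrast was added. From other lists, members past the threshold were named, and up to 3 with the smallest p over the 3 treatments, not all of which are given. Other members named were chosen after their values were seen. Alternatives were other scalings, background corrections, filters, probes, slide blocks, array weights, all 57 arrays and, added after seeing the data, leaving out the 3 rabbits highest in the members.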

Additional observations from a re-analysis of the deposited data

Results flagged for a closer look

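In 96 groups of 9 or 10 rabbits, 16 measures in 6 groups each, 5 had a rabbit whose gap to its neighbour was large against the range of the group. Chance flags about 1 in 20, and the measures are correlated. NF rabbit 79 of day 35 stood above its group in MKI67 (13.62, next 12.84) and in PCNA (14.74, next 14.1). FF rabbit 87 of day 35 stood above in the mean of the S phase genes (10.58, next 9.69). NF rabbit 170 of day 49 stood above in the mean of the mitosis genes (10.91, next 10.28). FFab rabbit 96 of day 35 stood above in CDC6 (8, next 7.39).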

How the results depend on the processing

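Of 13 counts of members past the threshold, 12 were 0 in all 12 alternatives and in the 4 settings that left out rabbits. In NF rabbits the count was 1, RFC3, with normexp background correction, with the deposited log2 table, with slides fitted as random blocks, and with array weights (adjusted p of 0.0417, 0.0373, 0.0390 and 0.0139 in limma), where in the other alternatives its adjusted p lay between 0.0563 and 0.194. Leaving out 1 rabbit gave counts of 0 to 1 there, 1 without FF rabbit 87 and 1 without NF rabbit 170 (adjusted p of 0.0385 and 0.0496), and without NF rabbit 79 an adjusted p of 0.193. The difference of CDC6 between days, 0.00, had its sign turned with normexp (-0.0063), with the deposited table (-0.0667) and without NF rabbit 170 (-0.0342; 0.0535 without FF rabbit 87); the cause was not tested. The mean of the members differed between days by -0.15 and by -0.18 to -0.11 when single rabbits were left out. Counts over all genes moved with the setting: 168 (normexp) to 355 (array weights) over the 3 treatments, 0 to 17 in NF, 0 to 30 in FFab rabbits and 0 to 3 in FF against FFab at day 35. The median age change of the members was followed over the 3 treatments and within each treatment. It kept its sign in each of these settings except in FF rabbits without rabbit 87 (0.06, alone or with NF rabbits 79 and 170 left out as well). Settings that left out rabbits were chosen after seeing the data. Leaving out each of the other rabbits in turn was not run. No paired analysis was possible because each rabbit number belongs to 1 animal and is shared by no other group. Dim genes, CCNE1 and CCNE2, are limited by their signal over background.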
